A study of Homo sapiens with 12 samples.

Results

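SW480 and COLO320DM, established human colorectal cancer cell lines, were compared with each other after transfection with an empty plasmid, over all genes of the deposited count table. The libraries were chosen by their labels: 6 of the 12 in the series, 3 of SW480 and 3 of COLO320DM, all with pCMV6-Entry. The other 6 libraries carried pCMV6-HKDC1, a plasmid for HKDC1, a member of the hexokinase family, in the same lines. They shared the estimate of spread and served to repeat the comparison. Both arms were grown in RPMI-1640 and received 10 µg of plasmid with Lipofectamine 2000 for 24 h, so the transfection is common to them. The time from the change of medium to harvest is not given in the sources used here. The series was made to look for genes through which HKDC1 might bear on proliferation. Each arm was 1 line, so genotype, origin and culture history cannot be told apart as sources of a difference. The labels do not say whether the 3 libraries of a line came from separate cultures, and p-values then measure only the spread between these libraries, which may be technical.

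The colon is lined by a simple epithelium whose cells are joined by E-cadherin, claudins and desmosomes, hold filaments of simple keratins, and take their identity from transcription factors of the CDX, HNF4 and GATA families. Most colorectal cancers lose APC, which leaves beta-catenin active at WNT target genes. Many also have an active MAPK cascade, and some lose SMAD4. SW480 is a widely used line with mutant APC. COLO320DM is known for extrachromosomal copies of the MYC region and for a poorly differentiated, neuroendocrine-type form.

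Most genes differed between the lines. Of 23684 genes tested, 16949 were called at an adjusted p under 0.05 by edgeR's quasi-likelihood F test, which is 71.6% of those tested. Of the called genes, 8828 were higher in SW480 (37.3% of those tested) and 8121 were lower (34.3%). A test against a difference of 2-fold, named the 2-fold test from here on, was passed by 8081 genes (34.1%), 4458 of them higher in SW480 (18.8%) and 3623 lower (15.3%). The libraries of the 2 lines did not overlap for 17339 genes (73.2%). Differences of at least 10-fold were found for 4129 genes (17.4%) and of at least 100-fold for 1203 genes (5.08%), counted among those past the 2-fold test. The median log2 difference of tested genes, SW480 minus COLO320DM, was 0.04. Counts within gene lists have to be read against these shares. For a single gene, an exact permutation test of 3 against 3 libraries cannot give a p under 0.1, so single genes are reported with the p of the fit across all genes, adjusted over all of them.

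The libraries held 35911723 to 45451279 counts in SW480 and 40238322 to 41594070 counts in COLO320DM. The first principal component of the 6 libraries held 94% of the variance and separated the lines. Replicates 2 and 3 of each line were close to each other, and replicate 1 stood apart. The chi-square per degree of freedom over genes was 3.18 between replicates 2 and 3 of COLO320DM and 4.77 between those of SW480, against 35 to 41.4 and 81.9 to 82.9 for pairs with replicate 1. Without SW480 replicate 1, 4695 genes were higher in SW480 and 3695 lower past the 2-fold test. Without the replicate 1 of each line, the numbers were 4591 and 3545. Levels are given as CPM, a gene's count relative to the library total after scaling by TMM factors. These are bulk libraries, in which fewer cells of a kind and less RNA per cell cannot be told apart.

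**Figure D1:**
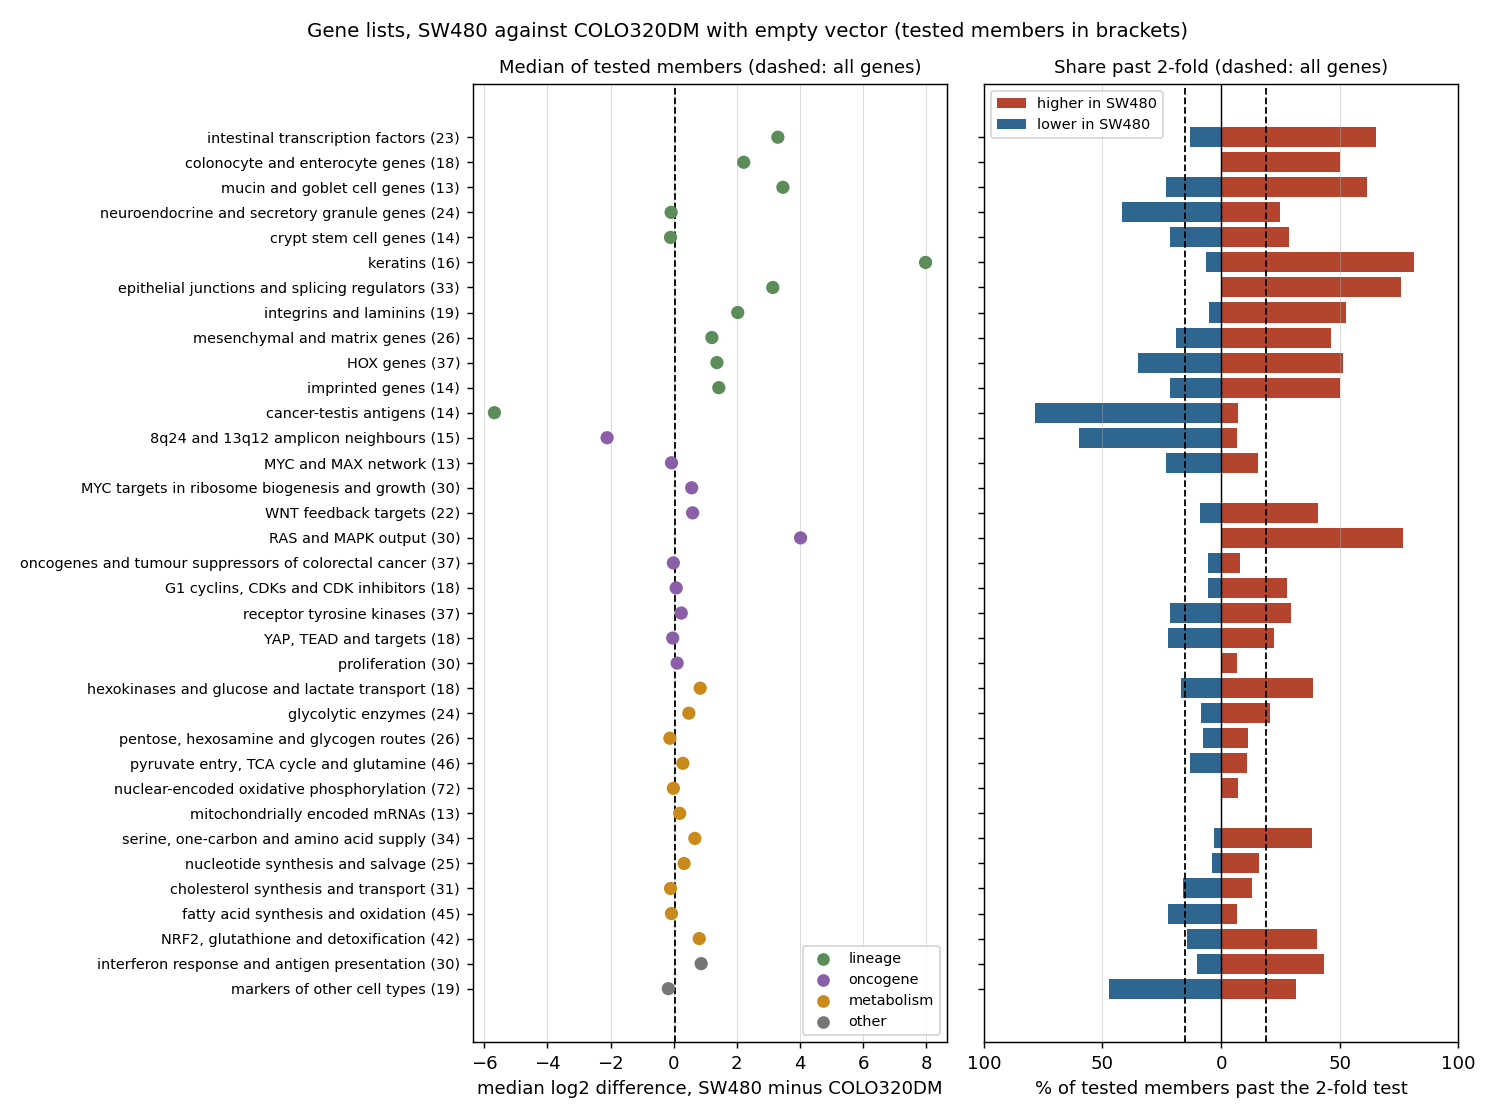
35 gene lists, with the median log2 difference of tested members (left; SW480 minus COLO320DM) and the percentage of tested members past the 2-fold test in each direction (right); dashed lines mark all tested genes. Keratins, RAS and MAPK output, mucins, intestinal factors and junction genes lie farthest to the SW480 side, and cancer-testis antigens and the 8q24 and 13q12 neighbours lie farthest to the COLO320DM side.

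The genes with the largest differences in SW480 included 2 keratins, a gut hormone and a peptide receptor. KRT5, the basal cell keratin (chr12:52514575-52520530), was at 2007, 1092 and 1157 CPM in the SW480 libraries and at 0.0236, 0 and 0.0231 CPM in those of COLO320DM, a ratio of 89880-fold (95% counting interval 24880 to 742100). FGF19, a gut hormone of the fibroblast growth factor family, was at 169, 251 and 248 CPM in SW480 and had no count in COLO320DM, which makes it at least 9517-fold higher. NTSR1, the neurotensin receptor, was at 196, 145 and 149 CPM in SW480 and 0, 0 and 0 CPM in COLO320DM. These genes were off or nearly off in every COLO320DM library and well expressed in every SW480 library. The same rule also named LAD1, EPS8L3, KRT6A, TNS4, COBL, ANO1, MYH14, SERPINB1, DOC2B, KLK6, CHST15 and CXCL8, with SW480 means from 54.6 CPM (CHST15) to 149.5 CPM (CXCL8) and no count in COLO320DM. KLK6, a secreted protease, and CXCL8 were lowest in SW480 replicate 1, at 19.4 and 39.3 CPM. In COLO320DM the 15 largest differences included 4 MAGE antigens, MAGEA6, MAGEA2, MAGEA2B and MAGEA12, beside ZNF518B, ZEB2, LRRN3, PEG10, TCIM and AMOTL1. HS6ST2, a heparan sulfate sulfotransferase, was at 64.05, 61.3 and 62.1 CPM there, and TUB, the tubby gene of neurons, was at 109.5, 102 and 99.2 CPM. FSTL1, a secreted glycoprotein of mesenchymal cells, was at 557, 489.6 and 509 CPM in COLO320DM against 0.104, 0.218 and 0.198 CPM in SW480. ERG, an ETS factor of endothelium and blood, was at 63.02, 53.2 and 55.2 CPM, and HDC, which makes histamine, at 192, 212 and 209.5 CPM. SW480 had at most 0.218 CPM of any of these 5 genes in any library. With so few counts the fitted log2 difference follows single libraries: it moved from -12.28 to -14.13 for ERG and from -12.16 to -13.69 for HDC without SW480 replicate 1, and from -11.85 to -12.62 for TUB without replicate 3. Likewise, without SW480 replicate 2 it moved to -14.85 from -13.00 for MAGEA2, to -14.84 from -12.99 for MAGEA2B, a near-identical copy, and to -12.17 from -9.96 for AMOTL1; PEG10 and TCIM moved by less. By difference in CPM rather than ratio, and with mitochondrially encoded genes left out, KRT8, KRT18, GAPDH, SLC1A5 and ACTB led in SW480, and MYC, LRATD2, CDX2, RPL9 and ENSA led in COLO320DM.

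Epithelial junction genes were high in SW480 and low or nearly absent in COLO320DM. Of 33 tested members of a list of 35 junction genes and epithelial splicing regulators, 25 were higher in SW480 past the 2-fold test and 0 were lower, with a median log2 difference of 3.14. EPCAM (chr2:47345158-47387601), an adhesion molecule found on most epithelial cells, was at 572, 474 and 506 CPM in SW480 and 1.91, 1.36 and 2.18 CPM in COLO320DM. The lines were far apart in every library, at 284-fold and a log2 difference of 8.15 ± 0.20 (SE; 2-fold test, adjusted p = 2.24e-12). CDH1, which encodes E-cadherin, was at 45.1, 18.9 and 20.5 CPM in SW480 and 0, 0 and 0.0926 CPM in COLO320DM. All of its COLO320DM counts came from replicate 3, without which the log2 difference moved from 9.67 to 13.09, and its level in SW480 was highest in replicate 1. CLDN7, a tight junction claudin, was at 162, 222 and 226 CPM against 0.377, 0.572 and 0.347 CPM, and ESRP1, which sets epithelial splicing, had means of 189.6 against 0.392 CPM. CLDN1, ST14 and PKP3 were also above 80 CPM on average in SW480 and under 0.1 CPM in COLO320DM, CLDN1 with 1 count there, in replicate 1 (log2 difference 13.51, and 15.29 without it). Not every junction gene followed. DSG2 (desmoglein, 163 against 277 CPM), PKP2 (82.2 against 105 CPM) and CGN (18.9 against 27.2 CPM) were called lower in SW480 without passing the 2-fold test. For PKP2 that call was lost without COLO320DM replicate 2 or 3 (log2 difference -0.32 and -0.31, against -0.35) and without SW480 replicate 2 or 3 (-0.28 and -0.29).

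The E-box CAGGTG, which reads CACCTG on the opposite strand, is the sequence through which ZEB and SNAI factors bind junction gene promoters, and the promoters of CLDN7 and CRB3, a polarity gene at 10.4 against 0.188 CPM, are printed here because they hold it several times. Each is the 250 bases before the gene start in RefSeq, GRCh38.p14, read 5′ to 3′ on the gene's strand with the E-boxes in capitals. The CLDN7 promoter is chr17:7262479-7262728 on the minus strand and has 4 E-boxes. The CRB3 promoter is chr19:6464021-6464270 on the plus strand and has 5.
CLDN7: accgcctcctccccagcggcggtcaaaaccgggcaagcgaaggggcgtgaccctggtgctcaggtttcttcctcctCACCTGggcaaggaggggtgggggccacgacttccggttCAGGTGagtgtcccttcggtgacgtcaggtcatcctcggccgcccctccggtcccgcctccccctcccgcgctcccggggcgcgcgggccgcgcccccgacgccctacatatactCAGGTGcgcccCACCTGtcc
CRB3: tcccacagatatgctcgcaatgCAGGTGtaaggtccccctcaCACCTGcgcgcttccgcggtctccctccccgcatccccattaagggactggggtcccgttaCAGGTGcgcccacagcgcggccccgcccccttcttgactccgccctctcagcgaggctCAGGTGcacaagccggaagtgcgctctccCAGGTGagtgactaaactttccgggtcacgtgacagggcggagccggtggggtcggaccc
Searched on both strands, the E-box was in 17.5% of 35116 promoters of the table and in 41.4% of the 29 promoters found for 19 junction list genes. Promoters with 4 or more made up 0.122% of all and 6.9% of the junction list. CLDN7 and CRB3 were picked for holding that many, so the share with 4 or more is not separate from their choice. The share with any E-box was 22.0% for protein-coding genes higher in SW480 past the 2-fold test and 14.7% for those lower. A match is a description of these letters and not evidence of binding.

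The factors that act on such promoters differed as well. ZEB2 was at 72.3, 63.9 and 65.8 CPM in COLO320DM and had 1 count in all SW480 libraries, in replicate 3, so that it was higher in COLO320DM by 8125-fold (95% counting interval 1458 to 321000). Without that replicate its log2 difference moved from -12.52 to -14.34. ZEB1 was at 41.8, 48.05 and 44.9 CPM in COLO320DM against 13.3, 12.2 and 11.4 CPM in SW480, 3.65-fold apart. SNAI2 went the other way, at 8.23, 12.7 and 13.3 CPM in SW480 and 1 count in COLO320DM, in replicate 2 (log2 difference 10.01, and 11.80 without it), and SNAI1 was not called (14.4 against 16.2 CPM). VIM, the intermediate filament of mesenchymal cells, was at 595, 819 and 819.6 CPM in COLO320DM against 57.2, 38.4 and 39.1 CPM in SW480. The list of mesenchymal and matrix genes did not move one way. Of 31 listed, 26 were tested, and 12 were higher in SW480 and 5 lower past the 2-fold test. Those higher in SW480 included TGFBI, a matrix protein (96.4 against 0.494 CPM), and S100A4 (264 against 1.92 CPM). Those lower included MMP2, a matrix metalloprotease (0.0164 against 9.25 CPM), and COL5A1, a collagen chain (0.161 against 8.53 CPM). Of 20 integrin and laminin genes, 19 were tested, and 10 were higher in SW480 and 1 lower past the 2-fold test. LAMB3 and LAMA3, chains of a basement membrane laminin of epithelium, had means of 208 and 128 CPM in SW480 against 0.0469 and 3.31 CPM in COLO320DM. ITGB4, the integrin chain that holds this laminin, had means of 152 against 1.24 CPM. ITGA2, a collagen receptor chain, was higher in COLO320DM (21.4 against 76.1 CPM).

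Keratins separated the lines in bulk as well as in kind. The 17 keratins on the list summed to 7323 to 10910 CPM in SW480 and 196.7 to 259.4 CPM in COLO320DM. Past the 2-fold test, 13 of 16 tested were higher in SW480 and 1 was lower. The median log2 difference was 7.98, or 7.48 with genes at 0 in a line set to their bound. KRT8 was at 4614, 3199 and 3431 CPM in SW480 and 112, 144 and 152 CPM in COLO320DM, and KRT18 at 3140, 2323 and 2463 CPM and 78.2, 95.5 and 96.7 CPM. These keratins pair in simple epithelium, and their genes overlap on opposite strands, so their counts may share reads. Both were still present in COLO320DM, 27.5-fold and 29.2-fold below SW480. The basal and stress keratins KRT5, KRT6A, KRT23 and KRT80 had SW480 means of 1419, 124, 125 and 112 CPM and were at most 0.109 CPM on average in COLO320DM. The only KRT23 count there was in replicate 1, without which its log2 difference moved from 13.47 to 15.25, and without replicate 3 that of KRT80 moved from 9.96 to 10.56. KRT13, of stratified epithelium, was the exception, at 4.01, 4.84 and 5.07 CPM in COLO320DM against 0.0519, 0.109 and 0.132 CPM in SW480. SW480 replicate 1 was the highest SW480 library for KRT8, KRT18, KRT5 and KRT6A, and without it KRT8 stood at a log2 difference of 4.62 against 4.79 with it.

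**Figure D2:**
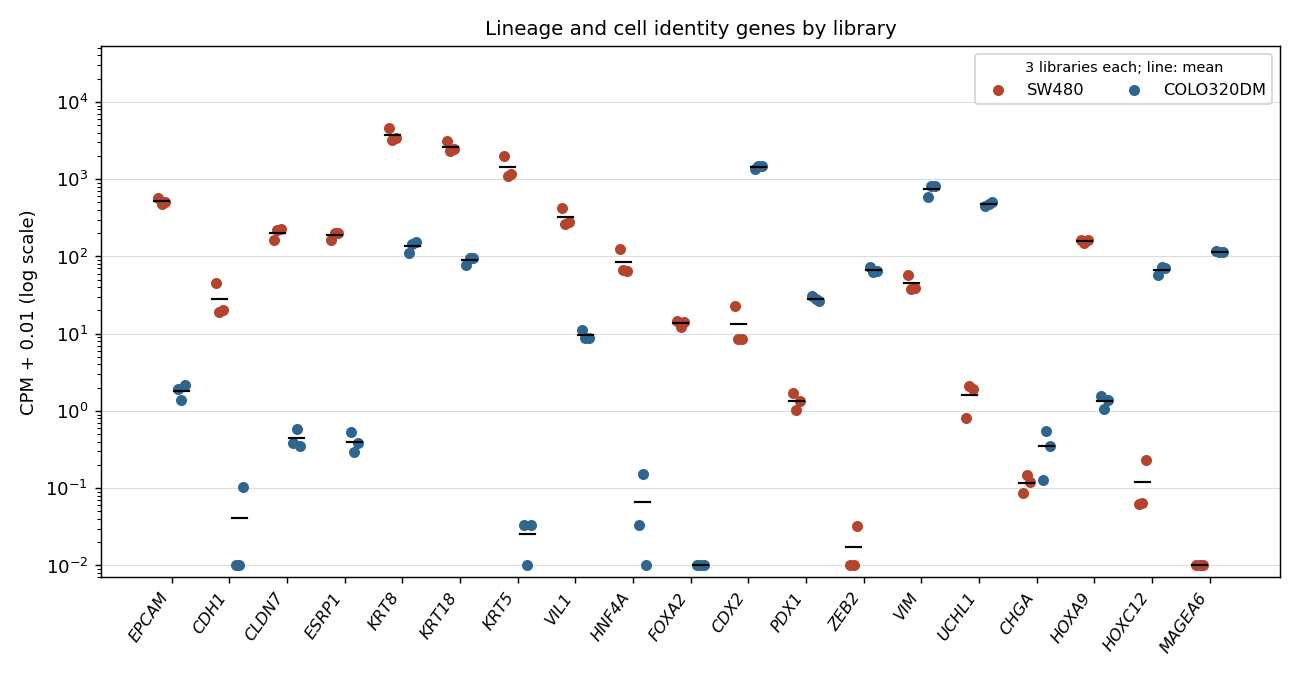
CPM plus 0.01 of 19 lineage and identity genes in each library, on a log axis; 3 points per line, bars at the mean. Junction genes and keratins are high in SW480, CDX2, PDX1, VIM, ZEB2, UCHL1, HOXC12 and MAGEA6 are high in COLO320DM, and CHGA is under 1 CPM in every library.

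Transcription factors of the intestine were mostly higher in SW480, but the best known of them was not. Of 28 factors, 23 were tested, and 15 were higher in SW480 and 3 lower past the 2-fold test. HNF4A, which drives enterocyte genes, was at 124, 67.2 and 64.8 CPM in SW480 and 0.0236, 0.143 and 0 CPM in COLO320DM. FOXA2, a pioneer factor of endoderm, was at 14.6, 12.3 and 14.1 CPM in SW480 and had no count in COLO320DM. EHF and ELF3, ETS factors of epithelium, had SW480 means of 54.2 and 78.7 CPM against 0.0233 and 0.101 CPM. The few counts in COLO320DM set these ratios: the log2 difference moved from 10.52 to 12.48 for HNF4A without replicate 2, and from 10.99 to 11.81 for EHF and 9.55 to 10.60 for ELF3 without replicate 3. KLF5 (346 against 12.3 CPM) and SOX9 (151 against 7.36 CPM), factors of the crypt, were higher by smaller ratios. CDX2 (chr13:27960918-27969315), the homeobox factor that sets intestinal identity, was at 1373, 1478 and 1500 CPM in COLO320DM against 22.6, 8.66 and 8.55 CPM in SW480. It was 111-fold higher in COLO320DM, with a log2 difference of -6.77 ± 0.46 (SE; 2-fold test, adjusted p = 4.55e-08). SW480 replicate 1 held the most CDX2 of its line, and without it the log2 difference was -7.39. PDX1, a factor of pancreas and duodenum and the neighbour of CDX2 on chromosome 13, was at 30.8, 27.9 and 26.2 CPM in COLO320DM against 1.69, 1.03 and 1.34 CPM in SW480.

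Many genes of mature colon cells had too few counts in either line to be tested. Of 34 colonocyte and enterocyte genes, 16 were not tested. Of the 18 tested, 9 were higher in SW480 past the 2-fold test and 0 lower. VIL1, the villin of microvilli, was at 420.4, 266 and 282 CPM in SW480 and 11.2, 8.82 and 8.82 CPM in COLO320DM. CDHR2 (28.03 against 0.227 CPM) and USH1C (71.1 against 1.397 CPM), which join microvilli into a brush border, showed the same direction. CA2 (carbonic anhydrase, 2.36 against 5.35 CPM) and the sulfate transporter SLC26A2 (24.6 against 58.96 CPM) were called lower in SW480 but did not pass the 2-fold test. SLC26A2 passed it without SW480 replicate 1 (adjusted p = 0.00134). Mucin and goblet cell genes summed to 41.98 to 44.2 CPM in SW480 and 8.04 to 9.096 CPM in COLO320DM, and 9 of 22 were not tested. Only TFF3 (10.1 CPM, a goblet cell peptide) and MUC13 (24.8 CPM, a membrane mucin) reached 5 CPM in either line, both in SW480. ATOH1, the factor that commits secretory cells, was higher in COLO320DM (0.0233 against 3.01 CPM; log2 difference -6.75, and -7.51 without SW480 replicate 3). Crypt stem cell genes were split, with 4 of 14 tested higher in SW480 and 3 lower past the 2-fold test, and 5 called higher and 6 lower. SMOC2 was at 9.55, 21.96 and 23.7 CPM in SW480 and had no count in COLO320DM. LGR5, the receptor that marks crypt base stem cells, was at 15.98, 6.67 and 6.49 CPM in SW480 and 8.602, 9.68 and 9.47 CPM in COLO320DM, and the lines overlapped. MSI1 (RNA-binding, 1.62 against 40.4 CPM) and BMI1 (Polycomb, 27.8 against 95.1 CPM) were higher in COLO320DM.

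COLO320DM RNA matched its neuroendocrine-type description only in part. The defining markers CHGA, CHGB, SYP, INSM1 and NEUROD1 summed to 2.97 to 5.60 CPM in COLO320DM and 3.56 to 7.30 CPM in SW480. CHGA, chromogranin A, was at 0.118, 0.548 and 0.347 CPM in COLO320DM, INSM1 had no count there, and SYP, synaptophysin, was called higher in SW480 (4.81 against 2.04 CPM; 2-fold test, adjusted p = 0.231). CHGB, chromogranin B, was at 1.25, 2.097 and 2.69 CPM in COLO320DM against 0.389, 0.354 and 0.6597 CPM in SW480, lower in SW480 past the 2-fold test (log2 difference -2.08 ± 0.37, adjusted p = 0.0046). NEUROD1, a factor of endocrine cells, was called higher in SW480, with under 1 CPM in every library (0.504 against 0.0939 CPM). CHGA was not called, but was called lower in SW480 without COLO320DM replicate 1 (log2 difference -2.02 against -1.62). Without SW480 replicate 1, SYP passed the 2-fold test (log2 difference 1.53, adjusted p = 0.0323). Other genes of neurons and secretory granules were high in COLO320DM. UCHL1, an abundant deubiquitinase of neurons, was at 455, 473 and 504 CPM in COLO320DM against 0.804, 2.098 and 1.91 CPM in SW480. SNAP25, part of the vesicle fusion machinery, had a mean of 31.2 CPM in COLO320DM against 1.34 CPM in SW480. CPE, a prohormone-processing carboxypeptidase, was at 53.8, 58.1 and 57.3 CPM against 1.14, 3.71 and 4.31 CPM. SYT1, a calcium sensor of vesicles, was at 168, 173 and 167 CPM in SW480 and 0.212, 0.214 and 0.231 CPM in COLO320DM, and DDC, an amine-making enzyme, was detected only in SW480 (5.63 CPM). Over the list, 6 of 24 tested genes were higher in SW480 and 10 lower past the 2-fold test, and 11 of 35 were not tested.

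HOX genes, which record position along the body axis, differed in direction between clusters. Of 39 listed, 37 were tested. Past the 2-fold test, 9 of 11 tested HOXA genes and 8 of 9 HOXB genes were higher in SW480, and 1 of each was lower. Of the HOXC genes, 2 of 9 were higher and 4 lower, and of the HOXD genes 1 of 8 was higher and 7 were lower. HOXA9 was at 164, 151 and 162 CPM in SW480 and 1.53, 1.05 and 1.39 CPM in COLO320DM; it overlaps HOXA10 in the annotation (67.6 against 1.14 CPM). HOXB8 was at 21.8, 14.1 and 13.8 CPM against 0.0707, 0.0953 and 0.0694 CPM. HOXC12 was at 57.9, 74.1 and 71.01 CPM in COLO320DM against 0.0519, 0.0545 and 0.2199 CPM in SW480, and without SW480 replicate 3 its log2 difference moved from -9.16 to -10.23. HOXD1 (0.108 against 6.78 CPM) and HOXD3 (0.122 against 7.204 CPM), at the other end of their cluster from HOXD13, were lower in SW480. The last genes of each cluster, HOXA13, HOXB13, HOXC13 and HOXD13, which pattern the hindgut and tail end, were all higher in COLO320DM, with means of 27.4, 22.6, 34.9 and 43.6 CPM there and 3.495, 3.08, 2.83 and 6.56 CPM in SW480.

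Imprinted genes, which are expressed from 1 parental copy, differed in both directions. Of 20 listed, 14 were tested, of which 7 were higher in SW480 and 3 lower past the 2-fold test. IGF2, a fetal growth factor with 2 entries in the table, was at 25.5, 58.5 and 55.1 CPM in SW480 for the entry with more counts and 0.0943, 0.262 and 0.347 CPM in COLO320DM. MEST was at 203, 209 and 222 CPM in SW480 and 2.19, 1.67 and 2.11 CPM in COLO320DM. PEG10, a gene derived from a retrotransposon, was at 143, 141 and 139 CPM in COLO320DM against 0.02595, 0.136 and 0.06597 CPM in SW480, with a log2 difference of -10.82, or -11.43 without SW480 replicate 2. Its neighbour SGCE, with which it overlaps, had means of 0.107 against 25.9 CPM. The libraries of the lines did not overlap for these 4 genes, as for 13 of the 14 tested here and 73.2% of all tested genes. MEST and PEG10 lie on the same chromosome, 7, with opposite directions.

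Cancer-testis antigens, which are normally restricted to germ cells, were high in COLO320DM. Past the 2-fold test, 11 of 14 tested were lower in SW480 and 1 was higher, and 8 of 22 were not tested. MAGEA6 was at 116, 114 and 114 CPM in COLO320DM and had no count in SW480, which makes it at least 4606-fold higher in COLO320DM. MAGEA3 (35.2 CPM) likewise had no count in SW480, and MAGEA12 was at 85.7, 85.3 and 81.3 CPM in COLO320DM against 0, 0.0817 and 0.02199 CPM in SW480. PRAME, a further antigen outside the X chromosome, was at 71.8, 66.5 and 67.3 CPM against 0.649, 0.817 and 0.418 CPM. MAGEC2 was the exception, with means of 17.4 against 0.0237 CPM. Without COLO320DM replicate 2 its log2 difference moved from 9.35 to 10.19, and without SW480 replicate 2 that of MAGEA12 moved from -11.18 to -12.44. MAGEA genes are near-identical copies, so how reads were shared among MAGEA2, MAGEA2B, MAGEA3, MAGEA6 and MAGEA12 is uncertain. The promoters of MAGEA3 and MAGEA12 are printed with their CpG pairs in capitals. These pairs are the sites at which DNA methylation can silence such genes. The promoters are the 250 bases before the start in RefSeq GRCh38.p14, on the plus strand. That of MAGEA3 is at chrX:152698544-152698793 with 15 CpG pairs, and that of MAGEA12 is at chrX:152733612-152733861 with 13.
MAGEA3: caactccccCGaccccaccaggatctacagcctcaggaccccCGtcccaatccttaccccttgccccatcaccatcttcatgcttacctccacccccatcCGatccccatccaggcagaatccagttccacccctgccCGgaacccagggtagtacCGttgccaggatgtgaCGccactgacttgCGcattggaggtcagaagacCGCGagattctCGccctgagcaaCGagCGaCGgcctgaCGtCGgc
MAGEA12: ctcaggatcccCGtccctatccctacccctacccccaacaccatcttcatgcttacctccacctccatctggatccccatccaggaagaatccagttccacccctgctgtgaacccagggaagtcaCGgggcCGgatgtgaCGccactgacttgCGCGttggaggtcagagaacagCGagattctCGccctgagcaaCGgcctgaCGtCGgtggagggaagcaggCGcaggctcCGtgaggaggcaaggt
The MAGEA6 promoter matched that of MAGEA3 at 250 of 250 bases. The median number of CpG pairs was 11 over all promoters of the table and 19 over those of tested protein-coding genes. It was 11 for genes on in SW480 only and 17 for genes on in COLO320DM only. No methylation was measured here.

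MYC and its neighbours on chromosome 8 were higher in COLO320DM. MYC (chr8:127735434-127742951), the transcription factor of growth genes, was at 3287, 3369 and 3406 CPM in COLO320DM against 907, 936 and 914 CPM in SW480. The libraries were tight within each line and 3.65-fold apart, with a log2 difference of -1.87 ± 0.09 (SE; 2-fold test, adjusted p = 2.15e-07). PVT1, the noncoding gene next to MYC, was at 1143, 1150 and 1062 CPM against 101, 101 and 99.6 CPM. LRATD2 was at 1936, 1859 and 1784 CPM in COLO320DM against 144, 196 and 198 CPM in SW480, and PCAT1, a noncoding RNA, was at 832, 862 and 844 CPM and 27.2, 45.99 and 45.01 CPM. These neighbours stood 11.1-fold, 10.3-fold and 21.4-fold above SW480, each a larger ratio than that of MYC itself. PCAT1 spans LRATD2, POU5F1B and CASC8 in the annotation, and CASC11 overlaps MYC, so reads in these spans cannot be assigned to 1 gene without strand. TRIB1, a pseudokinase gene farther out on the same arm, was higher in SW480 (49.8 against 18.7 CPM). NSMCE2 (19.2 against 21.04 CPM) and CASC8 (6.63 against 5.77 CPM) were not called, and ASAP1 (24.9 against 33.7 CPM) differed by less than 2-fold. Without SW480 replicate 1, CASC8 was called higher in SW480 (log2 difference 0.46 against 0.20). Of 19 listed neighbours on 8q24 and 13q12, 15 were tested, and 9 were lower in SW480 and 1 was higher past the 2-fold test.

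The higher MYC RNA was not matched by higher RNA of the listed MYC target genes. Of 30 genes of ribosome biogenesis and growth, 20 were called higher in SW480 and 2 lower, none past the 2-fold test, and the median log2 difference was 0.57. NOP2 (155 against 69.3 CPM) and NOP56 (413 against 197 CPM), which modify ribosomal RNA, and TFRC, the transferrin receptor (425 against 205 CPM), had the largest differences. BOP1 (78.8 against 98.6 CPM) and CDK4 (171 against 238 CPM) were called lower in SW480. These genes summed to 13240 CPM in SW480 replicate 1 and to 9233 and 9686 CPM in replicates 2 and 3, against 6960 to 7601 CPM in COLO320DM. The call of TFRC was lost without SW480 replicate 1 (log2 difference 0.57 against 1.05), COLO320DM replicate 2 (0.90) or COLO320DM replicate 3 (0.86). That of BOP1 was lost without replicate 2 or 3 of either line (from -0.32 to -0.26 and -0.28, and to -0.26 and -0.28). In the MYC and MAX network, MXD4, an antagonist, was lower in SW480 (9.43 against 58.3 CPM), as was MYCN (1.69 against 6.08 CPM), and MLXIPL, which senses glucose, was higher (20.9 against 2.22 CPM).

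Most RAS and MAPK output genes were higher in SW480. Of 30 genes tested, 23 were higher past the 2-fold test and 0 lower, with a median log2 difference of 4.02. DUSP6, the phosphatase that feeds back on ERK, was at 58.9, 81.2 and 88.8 CPM in SW480 and 2.36, 4.15 and 3.796 CPM in COLO320DM, and DUSP4 was at 105, 101 and 105 CPM against 0, 0.0953 and 0.0231 CPM. Of the ligands of the EGF receptor, EREG was at 59.9, 199 and 191 CPM in SW480 and 0.0943, 0.191 and 0 CPM in COLO320DM, and AREG and TGFA had means of 94.0 against 0.125 CPM and 70.9 against 2.41 CPM. PHLDA1 and EGR1, immediate response genes, were at 744, 812 and 817 CPM and 187, 627 and 569 CPM in SW480 and at means of 10.2 and 3.22 CPM in COLO320DM. CXCL8, the neutrophil chemokine interleukin-8, was at 39.3, 205 and 204 CPM in SW480 and had no count in COLO320DM. EPHA4 (28.8 against 26.02 CPM) and JUN (62.2 against 69.3 CPM) were not called. SW480 replicate 1 was the lowest library of its line for EREG, EGR1, CXCL8, DUSP6 and EPHA2, and the list summed to 2799 CPM in it against 4398 and 4265 CPM in the others and 358.6 to 380.3 CPM in COLO320DM. Without COLO320DM replicate 2, which held most of the few counts there, the log2 difference of DUSP4 moved from 11.25 to 12.76 and that of EREG from 10.59 to 11.55. Without SW480 replicate 1, 24 of the 30 were higher past the 2-fold test, with EREG at a log2 difference of 10.98 and EGR1 at 7.55. The promoter of CXCL8 is shown because the gene was fully on in 1 line and without a count in the other. It is chr4:73740319-73740568 on the plus strand of GRCh38.p14 (RefSeq), with the AP-1 site in capitals.
CXCL8: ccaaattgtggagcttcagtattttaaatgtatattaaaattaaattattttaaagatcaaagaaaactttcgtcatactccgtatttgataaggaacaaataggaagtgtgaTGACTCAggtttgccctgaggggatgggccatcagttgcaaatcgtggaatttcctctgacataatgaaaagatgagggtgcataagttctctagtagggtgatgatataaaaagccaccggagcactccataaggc
AP-1, the FOS and JUN dimer, binds TGANTCA (both strands are the same motif), which was in 6.57% of all promoters of this length, in 6.06% of 33 promoters of the MAPK list, in 7.13% of those of protein-coding genes higher in SW480 and in 4.32% of those lower.

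**Figure D3:**
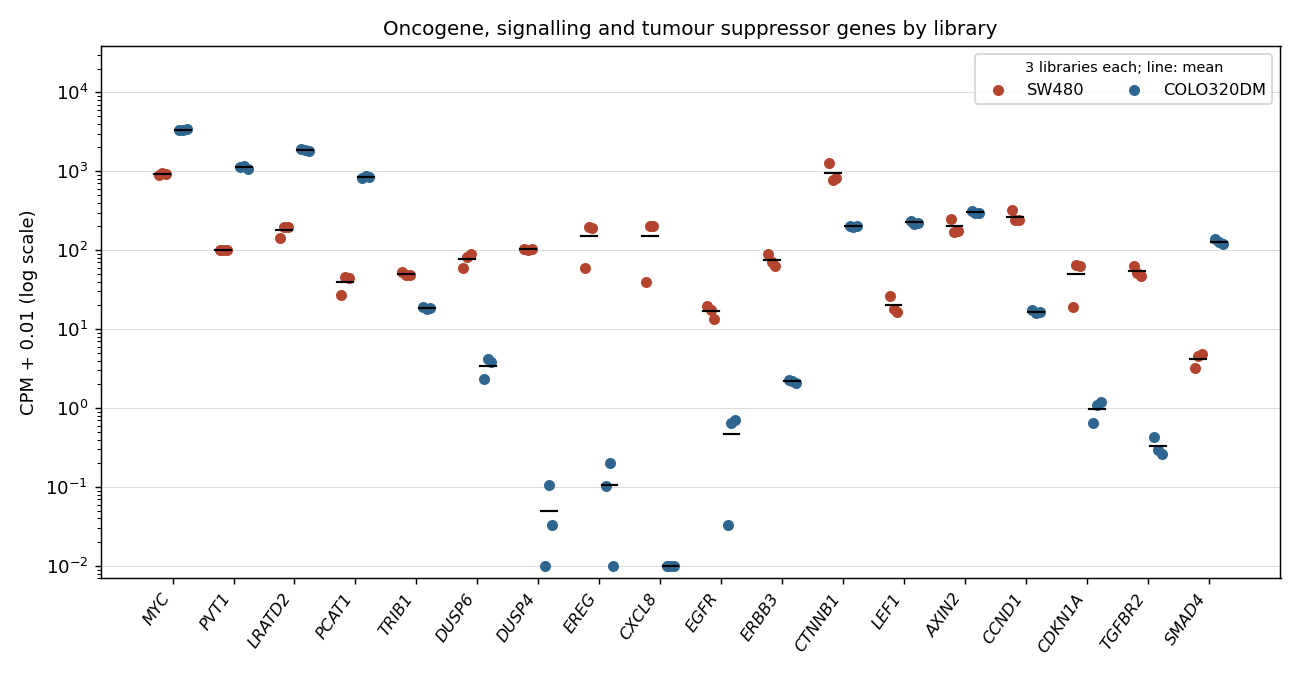
CPM plus 0.01 of 18 oncogene, signalling and tumour suppressor genes in each library, on a log axis; 3 points per line, bars at the mean. MYC, PVT1, LRATD2, PCAT1, LEF1 and SMAD4 are higher in COLO320DM, and DUSP4, EREG, CXCL8, CCND1, CDKN1A and TGFBR2 are higher in SW480.

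WNT pathway genes differed gene by gene. CTNNB1, which encodes beta-catenin, was at 1280, 775 and 825 CPM in SW480 and 203, 196 and 201 CPM in COLO320DM, 4.77-fold apart. APC was not called (58.4 against 64.4 CPM). Of 22 feedback targets tested, 9 were higher in SW480 and 2 lower past the 2-fold test. The secreted inhibitor DKK4 was at 18.4, 22.3 and 24.4 CPM in SW480 and at most 0.0238 CPM in COLO320DM, and PROX1, a homeobox factor of colorectal tumours, had means of 162 against 0.801 CPM. NKD1, a feedback inhibitor, was at 568, 614 and 564 CPM against 159, 133 and 132 CPM. AXIN2, the most used readout of WNT activity, was called lower in SW480 (252, 171 and 176 CPM against 312, 300.0 and 293 CPM) with a difference under 2-fold. LEF1, a nuclear partner of beta-catenin, was at 237, 217 and 219 CPM in COLO320DM against 26.4, 18.2 and 16.7 CPM in SW480. TNFRSF19 (21.02 against 59.4 CPM) shared its direction.

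Few oncogenes and tumour suppressors of colorectal cancer passed the 2-fold test. Of 37 tested, 3 were higher in SW480 and 2 lower past the 2-fold test. SMAD4, the common partner of the TGF-beta receptors' SMADs, was at 138, 125 and 120.3 CPM in COLO320DM against 3.17, 4.58 and 4.84 CPM in SW480, and the lines were 30.2-fold apart. TGFBR2, the receptor that starts that pathway, had the opposite pattern, at 63.4, 51.8 and 47.5 CPM in SW480 and 0.424, 0.286 and 0.255 CPM in COLO320DM, 168-fold apart. Each line thus had 1 of these genes at a low level and the other at a high level. MAP2K1 (112 against 49.01 CPM) was higher in SW480, and STK11, the LKB1 kinase (15.6 against 38.6 CPM), lower; STK11 did not pass the 2-fold test without COLO320DM replicate 2 (adjusted p = 0.0543).

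Regulators of the G1 phase differed in both directions. CCND1, cyclin D1, was at 325, 238 and 238 CPM in SW480 and 17.3, 16.1 and 16.5 CPM in COLO320DM, 16.0-fold apart, and its partner kinase CDK6 had means of 292 against 108 CPM. The inhibitors went both ways. Those higher in SW480 were CDKN1A (p21), CDKN2B and CDKN2A. CDKN1A was at 19.3, 64.8 and 63.9 CPM in SW480 against 0.636, 1.07 and 1.18 CPM in COLO320DM. CDKN2B had means of 36.9 against 0.4297 CPM and CDKN2A of 42.3 against 13.8 CPM. SW480 replicate 1 held the least CDKN1A of its line. CDKN2C was lower in SW480 past the 2-fold test (8.14 against 19.6 CPM; adjusted p = 0.0108), but not without SW480 replicate 2 (adjusted p = 0.0504), and CDKN1B (67.1 against 118 CPM) was called lower without passing it. CDKN1C, at 5.76, 4.14 and 3.91 CPM in SW480 and 6.98, 12.7 and 14.8 CPM in COLO320DM, was also called lower, and it passed the test only without COLO320DM replicate 1 (adjusted p = 0.0232) or both replicates numbered 1, among the fits that left out libraries. Over the list, 7 of 18 tested were called higher in SW480 and 6 lower, with a median log2 difference of 0.08. Past the 2-fold test, 5 were higher (27.8%, against 18.8% of all tested genes) and 1 lower (5.56%, against 15.3%). CDK2 (52.1 against 108 CPM) was called lower in SW480 without passing it. GDF15, a stress cytokine, was at 13.03, 117 and 112 CPM in SW480 and 0.0943, 0.786 and 0.949 CPM in COLO320DM. Without SW480 replicate 1, GDF15 stood at a log2 difference of 7.55 against 7.04 with it. SESN1, a stress-response gene, was lower in SW480 (8.65 against 37.8 CPM), and BAX, which starts cell death at mitochondria, differed by less than 2-fold (48.2 against 31.7 CPM). Few proliferation genes passed the test: 2 of 30 were higher in SW480 past the 2-fold test, MCM7 (586 against 202 CPM) and MCM6 (178 against 67.5 CPM), and 0 lower. MCM6 no longer passed without SW480 replicate 1 (log2 difference 1.24 against 1.40) or COLO320DM replicate 2 or 3 (1.32 and 1.32). MKI67 was at 416, 227 and 182 CPM in SW480 and 178, 148 and 137 CPM in COLO320DM, and its call was lost without SW480 replicate 1 (log2 difference 0.41 against 0.83) or COLO320DM replicate 3 (0.75).

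Receptor tyrosine kinases differed in both directions. Of 42 listed, 37 were tested, and 11 were higher in SW480 and 8 lower past the 2-fold test. MST1R, the RON receptor, was at 57.6, 53.7 and 51.5 CPM in SW480 and had no count in COLO320DM. ERBB3 was at 88.6, 70.2 and 63.5 CPM against 2.26, 2.17 and 2.06 CPM, and EGFR at 19.6, 17.4 and 13.5 CPM against 0.0236, 0.643 and 0.694 CPM, with almost none in COLO320DM replicate 1. NTRK2, a neurotrophin receptor (15.02 against 0.164 CPM), EPHB6 (74.3 against 0.0154 CPM) and EPHA2 (236 against 26.8 CPM) were also higher in SW480. ROR1, a WNT5A receptor, was at 21.7, 20.7 and 19.7 CPM in COLO320DM against 1.43, 1.12 and 1.32 CPM in SW480. KIT (3.299 against 33.4 CPM), MERTK (1.24 against 14.8 CPM) and PDGFRB (0.5298 against 6.69 CPM) were higher in COLO320DM. MET, the hepatocyte growth factor receptor, was at 111, 152 and 143 CPM and 125, 113 and 106 CPM, with overlap between the lines. It was called higher in SW480 without SW480 replicate 1 (log2 difference 0.37 against 0.24) or COLO320DM replicate 1 (0.30). The log2 difference of EPHB6 moved from 11.94 to 14.49 without COLO320DM replicate 3, and that of PDGFRB from -3.67 to -4.31 without SW480 replicate 2. Of the Hippo effectors, WWTR1 (TAZ) was at 109.7, 99.1 and 101 CPM in COLO320DM against 14.97, 15.4 and 14.6 CPM in SW480, whereas YAP1 was higher in SW480 by less than 2-fold (149 against 77.1 CPM). Their listed targets and partners went both ways, with 4 higher in SW480 and 4 lower past the 2-fold test of 18 tested and 19 listed (7 called higher and 9 lower), CRIM1 (16.1 against 86.2 CPM) among the latter and AJUBA (71.8 against 18.96 CPM) among the former.

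The main glucose transporters and the main lactate exporter were higher in SW480. SLC2A1, the GLUT1 transporter, was at 491, 322 and 322 CPM in SW480 and 32.8, 27.1 and 31.3 CPM in COLO320DM, with a log2 difference of 3.64 ± 0.21 (SE; 2-fold test, adjusted p = 2.2e-08). SLC2A3, GLUT3, was at 182, 143 and 137 CPM against 0, 0.0238 and 0.0463 CPM (log2 difference 12.50, and 13.32 without COLO320DM replicate 3). SLC16A3, the lactate exporter MCT4, was at 112, 105 and 103 CPM in SW480 and 0.471, 0.858 and 0.741 CPM in COLO320DM. All SW480 libraries were above all of COLO320DM for these transporters, where 73.2% of all tested genes had no overlap in either direction. SLC16A1, MCT1, was called lower in SW480 (146 against 229 CPM), a call lost without COLO320DM replicate 1 (log2 difference -0.54 against -0.65) or SW480 replicate 2 or 3 (-0.51 and -0.53). COLO320DM held more of the transporters SLC2A8, SLC2A12 and SLC2A13, with means of 17.1, 20.9 and 27.9 CPM against 3.57, 4.63 and 6.01 CPM. Among hexokinases, which trap glucose in the cell, HKDC1 (chr10:69220332-69267552) was at 38.4, 34.7 and 34.1 CPM in SW480 and 0, 0.0238 and 0.0231 CPM in COLO320DM with empty vector. HK1 was at 81.95, 72.0 and 70.3 CPM against 29.3, 40.4 and 39.99 CPM and HK2 at 179.6, 158 and 151 CPM against 106, 101 and 103 CPM, both called and both without passing the 2-fold test. Per length, SW480 held 61.6 TPM of HK2, 27.2 of HK1 and 19.4 of HKDC1, and COLO320DM held 38.97, 13.3 and 0.00856 TPM. Over the list of 21, 7 of 18 tested were higher in SW480 and 3 lower past the 2-fold test.

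Below hexokinase, most enzymes did not pass the 2-fold test. Of 25 glycolytic enzymes, 24 were tested, and 5 were higher in SW480 and 2 lower past the 2-fold test, and 12 were called higher. PFKP, the platelet form of phosphofructokinase, was at 96.7, 76.9 and 78.3 CPM in SW480 and 0.141, 0.429 and 0.0463 CPM in COLO320DM (log2 difference 8.66, and 9.76 without COLO320DM replicate 2), while the muscle form PFKM was lower (138 against 272 CPM) and the liver form PFKL higher (110.2 against 76.7 CPM) by less than 2-fold each. Per length, PFKP was 34.6 TPM in SW480 and 0.0849 TPM in COLO320DM, and PFKM 43.6 and 85.9 TPM. PKM, pyruvate kinase, was at 2048, 1455 and 1510 CPM against 642, 619 and 656 CPM, and GPI had means of 866 against 324 CPM. ENO1 (2645 against 1117 CPM) passed the 2-fold test with all libraries (adjusted p = 0.0297) but not without SW480 replicate 1 (0.112) or without COLO320DM replicate 2 (0.0819). GAPDH (4182 against 2107 CPM) did not pass it. LDHA was at 1559, 861 and 963 CPM in SW480 and 1438, 942 and 1025 CPM in COLO320DM and was not called, and replicate 1 was highest in each line. LDHB was called lower in SW480 (910.3 against 1404 CPM). ALDOC, the brain aldolase (7.39 against 55.96 CPM), and LDHD, for D-lactate (0.0838 against 14.1 CPM), were higher in COLO320DM. In the side routes, GFPT2, of the hexosamine pathway (23.4 against 0.817 CPM), GBE1 (31.03 against 7.36 CPM) and PYGB (128 against 42.7 CPM), of glycogen, were higher in SW480, and PGM1 (26.9 against 66.5 CPM) was lower. Past the 2-fold test 3 of 26 genes of these routes were higher and 2 lower, and 10 were called higher and 12 lower.

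**Figure D4:**
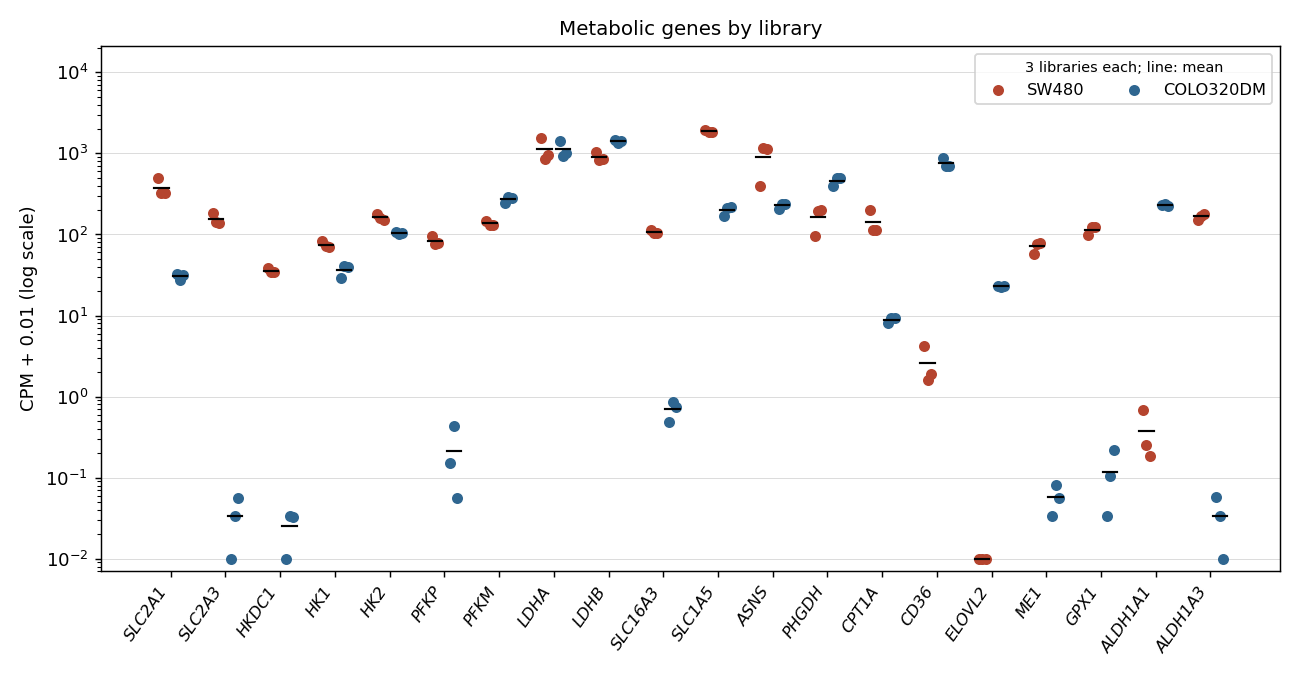
CPM plus 0.01 of 20 metabolic genes in each library, on a log axis; 3 points per line, bars at the mean. SLC2A3, HKDC1, PFKP, SLC16A3, ME1, GPX1 and ALDH1A3 are near 0 in COLO320DM, CD36, ELOVL2 and ALDH1A1 are near 0 in SW480, and LDHA overlaps.

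Few mitochondrial genes passed the 2-fold test. Of 74 nuclear-encoded subunits of oxidative phosphorylation, 72 were tested, and 5 were higher in SW480 past the 2-fold test and 0 lower, and the median log2 difference was -0.01. ATP5PF, a subunit of ATP synthase, was at 145, 116 and 124 CPM in SW480 and 44.2, 39.3 and 41.1 CPM in COLO320DM. UQCR10 (43.9 against 79.7 CPM) and NDUFB5 (63.6 against 116 CPM) were called lower in SW480 by less than 2-fold. None of the 13 mitochondrially encoded mRNAs passed the 2-fold test, but 6 were called higher and 4 lower. MT-ATP6 had means of 5914 against 2203 CPM and MT-ND1 of 1560 against 2511 CPM, and both are cut from the same long transcript of the mitochondrial heavy strand. The replicate 1 of each line held the most MT-ATP6 (8077, 4706 and 4957 CPM in SW480 and 3016, 1739 and 1855 CPM in COLO320DM), and it passed the 2-fold test without COLO320DM replicate 1 (log2 difference 1.72 against 1.42). The call of MT-ND1 was lost without COLO320DM replicate 1 (-0.52 against -0.69) or SW480 replicate 2 (-0.58). Around pyruvate and the TCA cycle, 5 of 46 genes were higher in SW480 past the 2-fold test and 6 lower, and 23 were called higher and 16 lower. ME1, which makes NADPH from malate, was at 57.6, 77.04 and 78.8 CPM in SW480 and 0.0236, 0.0715 and 0.0463 CPM in COLO320DM, and its mitochondrial relative ME3 was higher in COLO320DM (10.7 against 37.5 CPM). PDP1, which activates pyruvate dehydrogenase, was higher in SW480 (122 against 6.79 CPM), as was GLS2 (53.5 against 5.27 CPM), a glutaminase. PDK4, which inactivates that enzyme (1.74 against 17.7 CPM), and OGDHL (6.54 against 43.9 CPM) were higher in COLO320DM.

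Several amino acid supply genes were higher in SW480, with 1 library apart. Of 34 tested, 13 were higher past the 2-fold test and 1 lower. SLC1A5, the glutamine transporter, was at 1921, 1840 and 1854 CPM in SW480 and 170.4, 209.6 and 220.2 CPM in COLO320DM, 9.35-fold apart in libraries that varied little. ASS1, the first step from citrulline to arginine, was at 296, 479.9 and 477 CPM against 41.8, 54.6 and 53.2 CPM. ASNS, asparagine synthetase, was at 395, 1171 and 1146 CPM in SW480 and 209, 237 and 240.0 CPM in COLO320DM, and TRIB3, a target of ATF4, at 152, 686 and 661 CPM against 42.2, 52.2 and 51.7 CPM. SW480 replicate 1 was lowest for ASNS and TRIB3, and without it their log2 differences were 2.35 and 3.80 against 1.98 and 3.36 with it. PHGDH, which opens the serine pathway, was lower in SW480, at 96.04, 198 and 199 CPM against 400.0, 495 and 495 CPM. It passed the 2-fold test with all libraries (adjusted p = 0.0401) but not without SW480 replicate 1 (log2 difference -1.22, adjusted p = 0.178) or COLO320DM replicate 2 or 3 (adjusted p = 0.0827 and 0.0866). SHMT1 (27.2 against 50.8 CPM) and ARG2 (109 against 197 CPM) were called lower by less than 2-fold. In nucleotide metabolism, 4 of 25 tested and 26 listed were higher and 1 lower past the 2-fold test. UPP1 (26.3 against 1.69 CPM) and DPYD (9.46 against 0.964 CPM), which handle uracil and uridine, and GART (337 against 145 CPM), of purine synthesis, were higher in SW480, and DCK, deoxycytidine kinase (30.9 against 74.0 CPM), lower.

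Some fatty acid genes differed widely, in both directions. Of 45 tested, 3 were higher in SW480 past the 2-fold test (6.67%, against 18.8% of all tested genes). Lower in SW480 past that test were 10 (22.2%, against 15.3% of all). The median log2 difference of the list was -0.07. CD36, the fatty acid receptor, was at 874, 702 and 693 CPM in COLO320DM against 4.204, 1.61 and 1.91 CPM in SW480, 296-fold apart. ELOVL2 and ELOVL4, which lengthen long-chain fatty acids, were at 22.9, 22.5 and 23.3 CPM and 21.4, 17.7 and 19.5 CPM in COLO320DM and had no count in SW480. CPT1A, the gate to mitochondrial oxidation, was at 203, 113 and 114 CPM in SW480 and 8.15, 9.34 and 9.21 CPM in COLO320DM, and ACSL5 had means of 10.8 against 0.219 CPM. FASN was at 321, 184 and 177 CPM and 198, 364 and 369 CPM, with overlap and opposite shifts of replicate 1, and was called lower without SW480 replicate 1 (log2 difference -0.77 against -0.45) or COLO320DM replicate 1 (-0.69). SCD overlapped (615 against 637 CPM). In cholesterol synthesis, 5 of 31 genes were lower in SW480 past the 2-fold test and 4 higher. SQLE, which makes squalene epoxide, was at 124, 184 and 193 CPM in COLO320DM against 69.5, 43.1 and 45.9 CPM in SW480, and IDI1 had means of 31.8 against 98.4 CPM. HMGCS1 (77.8 against 226 CPM) passed the 2-fold test with all libraries and lost it without COLO320DM replicate 2 or 3 (log2 difference -1.43 and -1.38, against -1.54) or SW480 replicate 2 or 3 (-1.37 and -1.43).

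Detoxification genes differed by isoform between the lines. ALDH1A3, a retinaldehyde dehydrogenase, was at 152, 171 and 179.6 CPM in SW480 and 0.0471, 0.0238 and 0 CPM in COLO320DM, while ALDH1A1, of the same activity, was at 228, 234 and 227 CPM in COLO320DM against 0.675, 0.245 and 0.176 CPM in SW480. Per length, SW480 held 72.6 TPM of ALDH1A3 and COLO320DM 185 TPM of ALDH1A1. GPX1 and GPX2, glutathione peroxidases, were at 99.9, 122 and 123 CPM and 295, 191 and 217 CPM in SW480 and at means of 0.109 and 0.0786 CPM in COLO320DM. GSTM2 (0.714 against 69.3 CPM) and GSTM3 (0.0501 against 28.1 CPM), glutathione transferases, were higher in COLO320DM, and all 4 tested GSTM genes were lower in SW480. The 4 tested AKR1C genes, reductases that NRF2 induces, were all higher in SW480, AKR1C3 at 24.5 against 0.00794 CPM. NQO1, a standard NRF2 target, was at 76.6, 74.2 and 82.8 CPM against 21.6, 20.9 and 20.5 CPM, and NFE2L2, which encodes NRF2, had means of 161 against 56.03 CPM. Fitted log2 differences of genes near 0 followed single libraries. That of ALDH1A3 moved from 12.62 to 13.45 without COLO320DM replicate 1, that of AKR1C3 from 11.12 to 12.90 without replicate 2 and that of GPX1 from 9.99 to 10.84 without replicate 3, and that of ALDH1A1 from -9.31 to -10.08 without SW480 replicate 1. Over the list of 44, 17 of 42 tested were higher in SW480 and 6 lower past the 2-fold test.

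Interferon and antigen presentation genes were more often higher in SW480 than lower. Of 32 listed, 30 were tested, and 13 were higher and 3 lower past the 2-fold test. HLA-C was at 158, 190.4 and 198 CPM in SW480 and 8.67, 9.68 and 9.79 CPM in COLO320DM and HLA-B had means of 103 against 11.7 CPM. HLA genes vary between people and resemble each other, so reads that fit the reference less well may be missed or shared. B2M, the common light chain, was called lower in SW480 (196 against 356 CPM). IRF1 was at 32.7, 94.7 and 88.6 CPM in SW480 and 3.13, 3.24 and 2.8 CPM in COLO320DM, lowest in SW480 replicate 1. IRF7 (5.34 against 0.0631 CPM) and OAS1 (5.25 against 0.0631 CPM) were higher in SW480 (log2 differences 6.34 and 6.31, and 7.65 and 7.10 without COLO320DM replicate 2), and IFIT1 (0.699 against 11.1 CPM), IFI6 (4.14 against 11.4 CPM) and STING1 (3.27 against 14.6 CPM) in COLO320DM.

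Markers of cells that a colon cancer line should not contain were low but not all absent. The colon epithelium markers EPCAM, CDH1, KRT8, KRT18, VIL1 and CDH17 summed to 6307 to 8831 CPM in SW480 and 217.6 to 272.2 CPM in COLO320DM. Fibroblast markers summed to 19.2 to 20.4 CPM in SW480 and 40.6 to 64.3 CPM in COLO320DM. Leukocyte markers summed to 5.50 to 7.89 CPM in SW480 and 46.9 to 51.2 CPM in COLO320DM, with CD3D and MS4A1 at 0 in both lines. Endothelial markers were at most 1.25 and 4.91 CPM. Smooth muscle markers went the other way, with sums of 13.2 to 19.1 CPM in SW480 against 7.80 to 10.2 CPM in COLO320DM, most of it MYH11, the smooth muscle myosin, which was called higher in SW480 (11.2, 14.3 and 13.5 CPM, against 6.62, 9.2 and 8.702 CPM) without passing the 2-fold test. PTPRC, the leukocyte antigen CD45, was at 36.03, 38.4 and 35.5 CPM in COLO320DM against 0, 0 and 0.06597 CPM in SW480 (log2 difference -10.36, and -13.47 without SW480 replicate 3), and COL3A1, a fibrillar collagen, at 27.1, 45.8 and 42.3 CPM and 0, 0.0272 and 0.02199 CPM. LUM, a proteoglycan of connective tissue, was higher in SW480 (15.6 against 0.602 CPM), and COL1A1 was higher in COLO320DM (3.27 against 9.01 CPM), past the 2-fold test with all libraries but not without SW480 replicate 1 (log2 difference -1.22 against -1.46) or COLO320DM replicate 2 or 3 (-1.39 and -1.38). The part of other cells in the differences between the lines was not tested.

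By chromosome, the largest shifts were on 7, 21, 20, 13 and 4. The median log2 difference was 0.85 over 1197 tested genes of chromosome 7, of which 33.8% were higher in SW480 past the 2-fold test and 6.43% lower. It was 0.78 on chromosome 21 and 0.64 on chromosome 20. It was -0.66 over 467 genes of chromosome 13, of which 14.1% were higher and 29.3% lower, and -0.61 on chromosome 4. DNA copy number was not measured here.

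**Figure D5:**
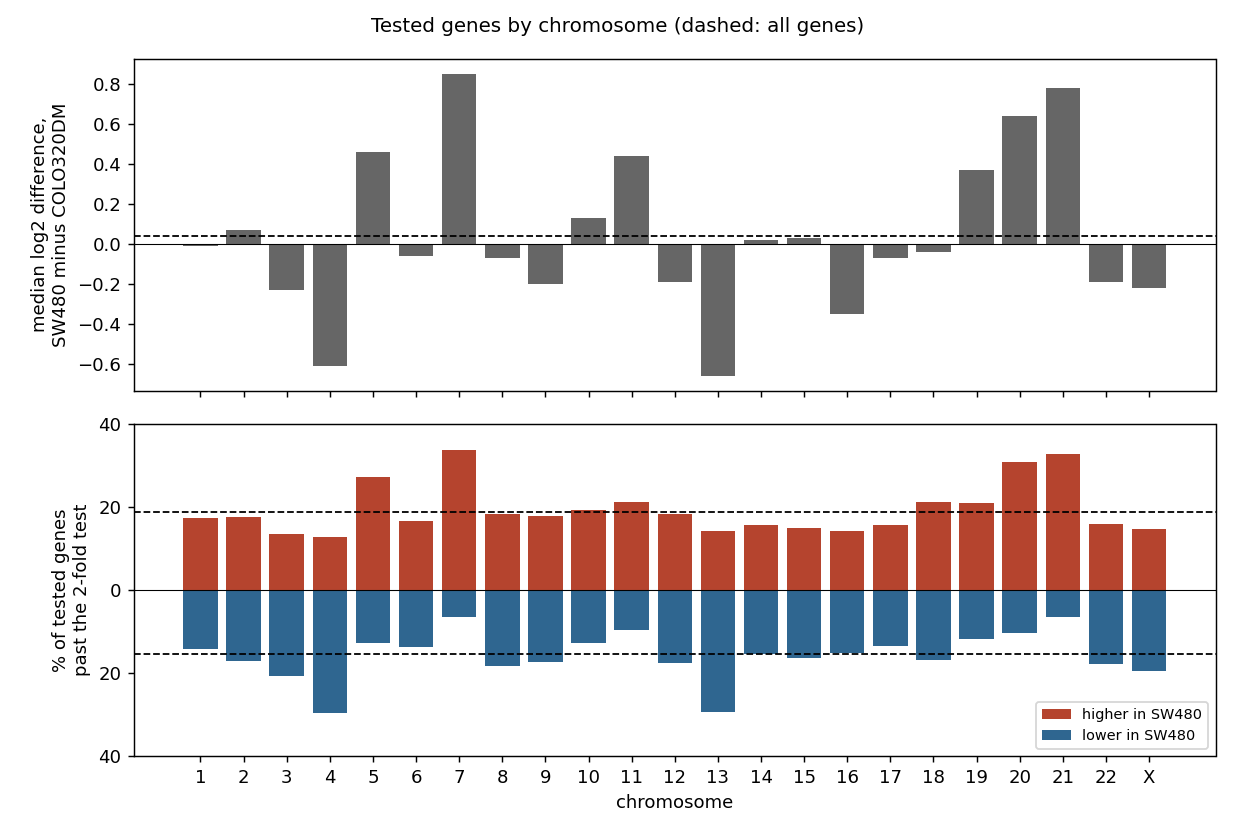
Median log2 difference of tested genes, SW480 minus COLO320DM, by chromosome (top) and percentage past the 2-fold test in each direction (bottom); dashed lines mark all tested genes. Chromosomes 7, 21 and 20 lie highest and 13 and 4 lowest.

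Some differences came in runs of neighbours. The run of 10 tested genes with the highest median, 11.47, was the UGT1A locus at chr2:233636454-233773305, whose genes share their last exons, so that the 9 entries on only in SW480 cannot be separated. The next was the keratin cluster at chr12:52314301-52777345 (11.32), with KRT5 and KRT6A. The run at chr20:62402236-62762771 (10.39) held NTSR1 and SLCO4A1, an organic anion transporter at 136 against 0.031 CPM (log2 difference 11.94, and 13.13 without COLO320DM replicate 3). On the other side, the lowest run (-11.43) was chrX:152637895-152769747 with MAGEA and CSAG genes. The run at chr16:54847316-55706192 (-7.82) held IRX5, IRX6 and MMP2, and that at chr4:68310387-70686816 (-7.28) held UGT2B genes. A region of chromosome 11 was looked at because CPT1A, CCND1, FGF19 and ANO1, named above, lie close together there. At chr11:68754620-71252577, from CPT1A to SHANK2, 15 of 16 tested genes were called higher in SW480, 10 of them past the 2-fold test, and none was lower. These counts include the genes by which the region was picked, so they are not a test. Of all tested genes, 37.3% were called higher in SW480, and 18.8% were higher past the 2-fold test. Over the whole of chromosome 11, 21.1% were higher past it. FGF3, a growth factor of the embryo, was at 29.8, 35.9 and 37.1 CPM in SW480, and FGF3, FGF19, ANO1 and SHANK2 had no count in COLO320DM. CTTN, cortactin, inside the same region, was not called (73.9 against 72.7 CPM).

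Genes that were on in 1 line and off in the other were more numerous in SW480. On meant a mean of at least 5 CPM and off meant at most 3 counts over the 3 libraries. By this rule 301 genes were on only in SW480, 215 of them protein-coding and 147 without a count in COLO320DM, and 116 were on only in COLO320DM, 78 of them protein-coding and 53 without a count in SW480. Chromosome 7 held 32 of the former and 2 of the latter, and the X chromosome 4 and 18. Of the 23684 tested genes, 1197 lie on chromosome 7 and 784 on the X chromosome. S100A6, a calcium-binding protein, was at 333, 274 and 279.5 CPM in SW480 and 0.0236, 0 and 0.0231 CPM in COLO320DM. With the HKDC1 plasmid, 265 of the 301 again had at most 3 counts in COLO320DM and 282 at least 5 CPM in SW480; of the 116, the numbers were 102 and 113.

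Several families, counted after their values were seen, moved largely in 1 direction. Past the 2-fold test, 9 of 11 tested S100A genes, all 7 APOBEC3 genes and 14 of 17 CXC and CC chemokine genes were higher in SW480, and no S100A or APOBEC3 gene and 1 chemokine gene was lower. APOBEC3B, a cytidine deaminase, was at 22.3, 55.2 and 51.3 CPM in SW480 and 0.0236, 0.0715 and 0.0463 CPM in COLO320DM. CXCL1 and CCL20, chemokines, were at 25.8, 100.3 and 98.4 CPM and 27.3, 93.3 and 92.1 CPM in SW480 and at most 0.0316 CPM on average in COLO320DM. CCL20 had 1 count there, in replicate 1, without which its log2 difference moved from 12.65 to 14.43. SW480 replicate 1 was the lowest of its line for all of these. Zinc finger genes named ZNF, ZFP or ZSCAN leaned the other way, with 36 higher in SW480 and 116 lower past the 2-fold test of 507 tested and a median log2 difference of -0.40. Of the 10 of them on only in COLO320DM, 9 lie on chromosome 19, as does the 1 on only in SW480. The share of all tested zinc finger genes on that chromosome is not given here, so these counts cannot be read against it.

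The comparison was repeated in the libraries with the HKDC1 plasmid. Of the 8081 genes past the 2-fold test with empty vector, 7423 (91.9%) passed it in the same direction with the HKDC1 plasmid, where the test was passed by 33.4% of all genes, and 8079 had the same sign. A test of whether the difference between the lines itself differed with the plasmid called 2 genes by edgeR at an adjusted p under 0.05, HKDC1 and AL596223.2 (0.00844% of those tested), and 379 genes had an unadjusted p under 0.05. That is a smaller share than this threshold gives where nothing differs. The fit had no term for the replicate number. SW480 replicate 1 had the lowest TMM factor of its group with either plasmid (0.9196 with empty vector and 0.903 with HKDC1). A shift shared by same-numbered libraries would count as spread in this test. The few calls therefore do not show that the plasmid left other genes unchanged.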

How the data were processed

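Poly-A RNA from transfected cells was sequenced, and the authors deposited 1 table of raw counts per gene for 60623 genes, in which all 12 columns were matched to samples by name. HISAT2 2.1.0, limma and GRCh38 are named, per the submitters' processing notes; the counter, its annotation and its use of strand are not given in the sources used here. Reads of overlapping, antisense or near-identical genes therefore cannot be told apart.

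The counts were fitted with edgeR 4.0.16 (R 4.3.3; limma 3.58.1, DESeq2 1.42.0): genes with a minimum count of 10 by filterByExpr, TMM factors, 4 group means over 12 libraries, quasi-likelihood F test, and glmTreat against 2-fold. P-values were Benjamini-Hochberg adjusted over 23684 genes. Errors of log2 differences are standard errors. Intervals of ratios cover counting error at 95% only, and a ratio against no count uses a floor of 3 counts over the group. TPM used the deposited gene lengths. On simulated counts, 74% of genes changed 2-fold and 98% changed 4-fold were called, 86% of the latter past the 2-fold test, and 0.03% of unchanged genes were called. The simulation changed 200 genes and gave every gene the same coefficient of variation, 0.157, with no library set apart. In the real libraries replicate 1 stood apart and most genes were called, so these rates may not hold for them.

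Genes were named by a rule: the 15 largest log2 differences per direction among protein-coding genes past the 2-fold test with at least 50 CPM, the 5 largest CPM differences per direction, up to 3 genes per direction in each list with at least 5 CPM, and fixed anchors. Others were named after their values were seen, and some genes and 1 list are not reported here. The comparison, its 36 lists and these rules were chosen with earlier results of these data known. Promoters are RefSeq sequences, from the start with the most CpG pairs where a gene had several. The alternatives tried were other normalizations, count filters, tools and designs, the HKDC1-plasmid libraries, and leaving out each library.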

Additional observations from a re-analysis of the deposited data

Results flagged for a closer look

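For 2 genes the difference between the lines itself differed with the plasmid, by an interaction term in the edgeR fit. For HKDC1 the log2 difference between SW480 and COLO320DM was larger with empty vector than with the HKDC1 plasmid by 10.23 (adjusted p = 2.33e-08), with means of 35.7 against 0.0157 CPM with empty vector and 13370 against 8466 CPM with the plasmid. For AL596223.2, a noncoding gene at chr10:69265342-69268148 that overlaps the end of HKDC1 on the other strand, it was larger by 9.10 (adjusted p = 0.000175), with 2.803, 2.37 and 2.81 CPM in SW480 and no count in COLO320DM with empty vector. Reads of the plasmid's HKDC1 and of AL596223.2 cannot be told apart without strand.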

How the results depend on the processing

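Across 17 alternatives, the genes called higher in SW480 numbered 7092 to 9623 and those lower 6781 to 8740, and past the 2-fold test 3134 to 5018 and 2708 to 4027, within 1.5 times the main counts. Leaving out 1 library gave 8447 to 8942 and 7626 to 8270 called, and 4315 to 4695 and 3477 to 3695 past the 2-fold test. Leaving out both replicates numbered 1 was added after seeing the data. A replicate block gave 9365 calls higher in SW480 and 8701 lower, with 4613 and 3783 past the 2-fold test. The numbers were not taken as pairs in the main fit, because no label says that a number is shared by the lines. Deviations of same-numbered empty-vector libraries of the 2 lines correlated at 0.15, 0.08 and 0.09, and every library correlated best with its own number. Pairing of same-numbered libraries of the 2 plasmids within a line was not examined.

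Of 270 named genes, those that turned sign under some alternative were not called: with the HKDC1-plasmid libraries APC (0.01), EPHA4 (-0.14), NSMCE2 (0.13) and LDHA (0.03); LDHA also with DESeq2 (0.01), the 6 libraries alone (0.01) and replicates 2 and 3 summed (0.04), where SCD (0.07) and SNAI1 (0.02) turned too; LGR5 with library totals (-0.04), limma-voom (-0.07), the replicate block (-0.03) and without both replicates numbered 1 (-0.52); and CTTN with library totals (-0.07), upper-quartile factors (-0.00) and without both replicates numbered 1 (-0.09). Leaving out 1 library gave -0.04 to 0.46 for CASC8, -0.16 to 0.11 for CTTN, -0.31 to 0.20 for LDHA, -0.48 to 0.29 for LGR5 and -0.18 to 0.03 for SCD. The 2-fold test was lost by 13 named genes with replicates 2 and 3 summed, which leaves fewer libraries, 10 with limma-voom and 9 with DESeq2, among them ENO1, HMGCS1, PHGDH, MCM6 and STK11; other causes were not tested.

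Of the 70 counts of list members past the 2-fold test, 2 for each list reported, 17 moved by over 1.5 times under some alternative. Cholesterol genes lower in SW480 fell from 5 to 0 with replicates 2 and 3 summed and to 2 or 3 under 9 others; imprinted genes higher fell from 7 to 4 under 4. A minimum count of 50, which tests fewer genes, took cancer-testis antigens lower from 11 to 5, mucin and goblet cell genes higher from 8 to 4 (5 with the 6 libraries alone), YAP and TEAD genes higher from 4 to 2 and other-cell markers higher from 6 to 3. The replicate block took mitochondrially encoded mRNAs higher from 0 to 3 (1 or 2 under 5 others) and fatty acid genes higher from 3 to 6, and library totals took oxidative phosphorylation genes higher from 5 to 3. The remaining counts had at most 2 members in the fit with all libraries: oncogenes lower fell to 1 under 4 alternatives and proliferation genes higher to 1 under 6, serine and amino acid genes lower to 0 under 8 and nucleotide genes lower to 0 under 2, and G1 genes lower went to 0 under 4 and 2 under 3. Colonocyte genes lower rose from 0 to 1 under 4, integrins and laminins lower from 1 to 2 under 2 and cancer-testis antigens higher from 1 to 2 under 3. The 3 libraries per line and 1 line per arm limit the precision; genes near 0 counts have ratios that single libraries set.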
